A study of Mus musculus with 6 samples.

Results

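The sodium and voltage-gated calcium channel genes comprised every gene whose symbol begins with Scn and a digit, with Scnn1 or with Cacn, and 43 of the 23420 genes in the expression table met this rule. They encode the voltage-gated sodium channels and their beta subunits, the epithelial sodium channel, and the voltage-gated calcium channels with their alpha1, beta, alpha2delta and gamma subunits. RNA was measured in 6 libraries of tuft cells from the ileum of C57BL/6J mice carrying the Gfi1b-eGFP allele in the heterozygous state (Gfi1b-eGFP/+), which formed a single group without a treated or mutant counterpart. In these animals green fluorescent protein is made from the locus of Gfi1b, a transcription factor gene active in tuft cells, and the sorted cells were positive for this protein and EpCam and negative for CD45 and propidium iodide. Each library was labelled as a separate mouse replicate, and the labels gave neither age nor sex. All 14 tuft cell markers examined were above 0 in every library, with summed levels between 5998 and 9838 TPM, a unit that gives the share of all transcripts coming from a gene after correction for transcript length. TPM keeps no read number, so sequencing depth was unknown, no counting interval or detection limit could be given, and a value of 0 is described as listed at 0. Genes above 0 numbered 13044 to 13308 per library. The libraries also held RNA of other epithelial and immune cells. Summed marker levels were 7703 to 16268 TPM for enterocytes, 3742 to 26006 for Paneth cells and 1053 to 5118 for goblet cells. They were 317 to 788 TPM for stem cells and 125 to 287 for T lymphocytes. Enteroendocrine markers summed to 403 to 555 TPM, most of it from Sct (331 to 474 TPM). The part of all these cells in the levels below was not tested. In pooled cells, fewer cells with a transcript and less of it per cell cannot be told apart.

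Tuft cells share the taste transduction cascade of the tongue, in which a receptor acts through a G protein and phospholipase C to release calcium from internal stores, and calcium then opens TRPM5, a channel that passes monovalent cations and depolarises the cell. In taste cells this depolarisation is followed by action potentials carried by voltage-gated sodium channels, and in neurons and endocrine cells voltage-gated calcium channels turn depolarisation into calcium entry and release. A voltage-gated channel is built around a large pore-forming alpha or alpha1 subunit, to which beta and alpha2delta subunits add trafficking and gating properties, whereas the epithelial sodium channel passes sodium without being gated by voltage. The comparisons below ask which of these subunits had RNA in tuft cells that could serve a TRPM5-driven depolarisation. RNA was measured, and neither current nor membrane potential was recorded in these data.

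The part of a pore-forming subunit that senses voltage is a set of helices with an arginine or lysine at intervals of 3 residues, and this is written in the coding sequence as charged codons spaced 3 apart. Runs of at least 4 such codons, with at least 75% small or hydrophobic codons between them, were searched for in the longest complete coding sequence of each gene in GENCODE M21 on GRCm38 (mm10), which 42 of the 43 genes had. All 10 calcium channel alpha1 genes held 4 runs, and 7 of the 9 voltage-gated sodium channel alpha genes also held 4. Scn11a held 3. Scn7a, a sodium channel relative that responds to sodium rather than to voltage, held 1. The 3 Scnn1 genes, the beta, alpha2delta and gamma genes and Trpm5 held 0. The first run is printed for the 3 alpha1 genes with the highest levels and for Scn3a, a sodium channel alpha gene taken up again below, to show the charged codons of the voltage sensor in the genes these results turn on. Sequences run 5′ to 3′ on the coding strand, and capitals mark arginine and lysine codons.
Cacna1c, chr6:118776436-118776474, minus strand: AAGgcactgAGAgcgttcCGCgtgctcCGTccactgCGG
Cacna1d, chr14:30184063-30184101, minus strand: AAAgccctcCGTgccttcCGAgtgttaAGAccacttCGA
Cacna1a, chr8:84514997-84515035, plus strand: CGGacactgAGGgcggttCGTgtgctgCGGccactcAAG
Scn3a, chr2:65525714-65525743, minus strand: AGAacgttcAGAgttctcCGAgcattgAAA
Each of the 3 calcium channel runs lies in a single coding exon and holds 5 charged codons in 39 bases. Cacna1c and Cacna1d had the same base at 26 of 39 positions and encoded the same amino acids. Cacna1c and Cacna1a had the same base at 27 positions, and Cacna1a and Cacna1d at 19. The first run of Scn3a held 4 charged codons in 30 bases.

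**Figure D1:**
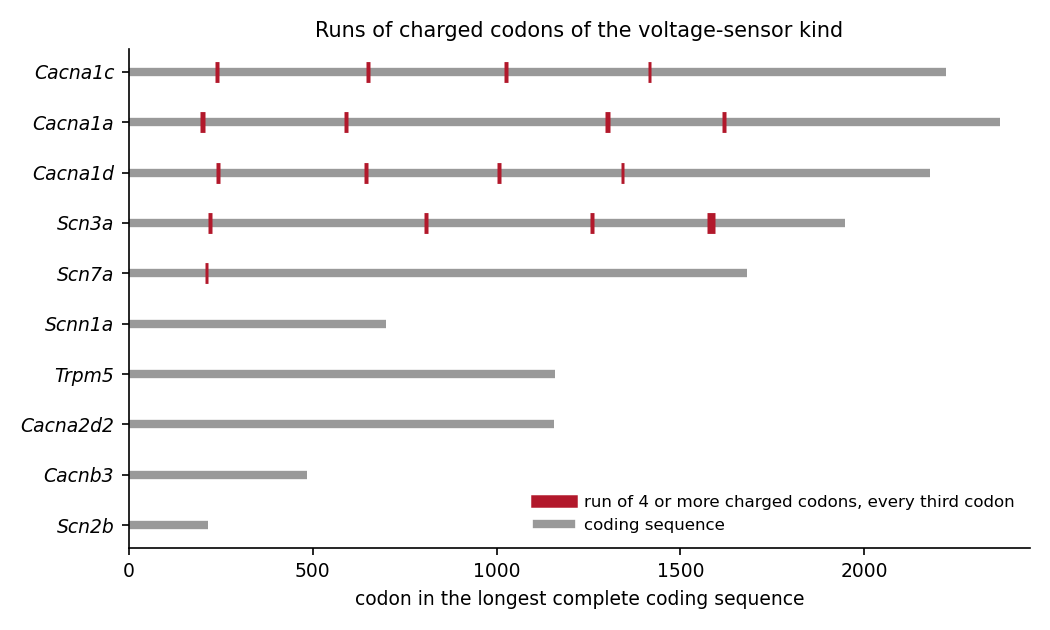
Position of each run of charged codons (red) along the longest complete coding sequence (grey, in codons) of 10 genes. Cacna1c, Cacna1a, Cacna1d and Scn3a carry 4 runs and Scn7a 1, while Scnn1a, Trpm5, Cacna2d2, Cacnb3 and Scn2b carry 0.

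Most of the 43 genes had little or no RNA signal. In every library, 22 genes (51.2%) were listed at 0, against 32.9% of all genes. Above 0 in all 6 libraries were 9 genes (20.9%), against 47.2% of all genes. The same 9 genes had a mean of at least 1 TPM, a level that 51.4% of all genes reached. The other 12 genes were above 0 in some libraries only. Together the 43 genes summed to between 78.3 and 112 TPM per library. The 9 genes in descending order of mean were Cacnb3, Cacna2d2, Cacna1c, Cacnb1, Scnn1a, Cacna1a, Cacnb4, Scn2b and Cacna1d. Of these, 7 belong to calcium channels, whose genes (10 alpha1, 8 beta and alpha2delta, 8 gamma) also make up most of the 43.

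**Figure D2:**
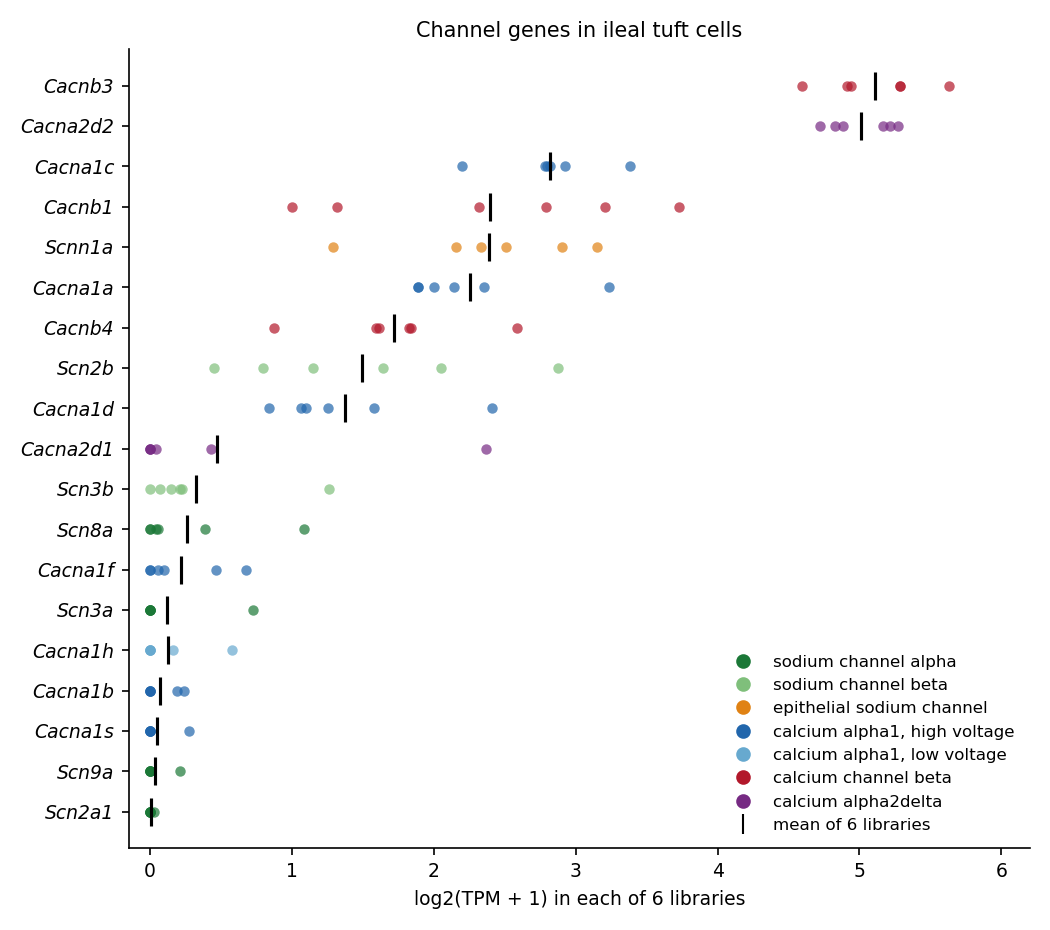
Level of the genes described here that were above 0 in any library, as log2(TPM + 1), with a point per library and a bar at the mean. Cacnb3 and Cacna2d2 stand above every other gene in all 6 libraries, and the sodium channel alpha genes lie near 0.

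Cacna1c, on chromosome 6 (118587240 to 119196418, minus strand), encodes the L-type alpha1 subunit known from heart, smooth muscle and neurons. Among the 43 genes it was the most abundant with a voltage sensor. It measured 9.43, 6.58, 5.94, 6.06, 3.58 and 5.87 TPM in replicates 1 to 6, a mean of 6.24 ± 1.88 (SD, n = 6). Its SD on the log2(TPM + 1) scale was 0.38, where the median gene with a mean of 1 to 10 TPM had 0.79. Of the 5046 genes in that range, 3784 were above 0 in every library, and they were not matched to Cacna1c in transcript length. Among the genes above 0 in a library Cacna1c stood between the percentiles 28.3 and 46.0 from the bottom.

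Cacna1a, on chromosome 8 (84388440 to 84640246, plus strand), encodes the P/Q-type alpha1 subunit that serves transmitter release at many synapses. Its values were 2.71, 3.01, 3.41, 2.71, 4.1 and 8.39 TPM, a mean of 4.06 ± 2.19 (SD, n = 6). Replicate 6 was far above the others, and the mean without it was 3.19 TPM.

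Cacna1d, on chromosome 14 (30039939 to 30491455, minus strand), encodes another L-type alpha1 subunit, known for opening at less depolarised voltages than Cacna1c. Its values were 1.98, 4.31, 0.79, 1.38, 1.14 and 1.09 TPM, a mean of 1.78 ± 1.30 (SD, n = 6), with replicate 2 the highest. In GENCODE M21 it shares 589 exonic bases, none of them coding, with Chdh, the choline dehydrogenase gene on the opposite strand, at chr14:30039939-30040527. The overlap lies in 6 of the 12 Cacna1d transcripts, and the longest coding transcript holds 0 of these bases. The transcript models used by the authors were not checked. Chdh measured between 116 and 193 TPM, 37.5 to 147 times Cacna1d, and the library preparation keeps no strand. The share of the Cacna1d value that came from Chdh reads was not tested.

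Cacna1c, Cacna1a and Cacna1d together made up 94.7% to 100% of the summed alpha1 level, which was 12.5 ± 2.89 TPM (SD, n = 6). Cacna1c was the leading alpha1 gene in replicates 1 to 4 and Cacna1a in replicates 5 and 6, so their order differed between libraries. Cacna1c formed 37.0% to 65.5% of the alpha1 sum, Cacna1a 18.8% to 52.8% and Cacna1d 6.86% to 29.4%.

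**Figure D3:**
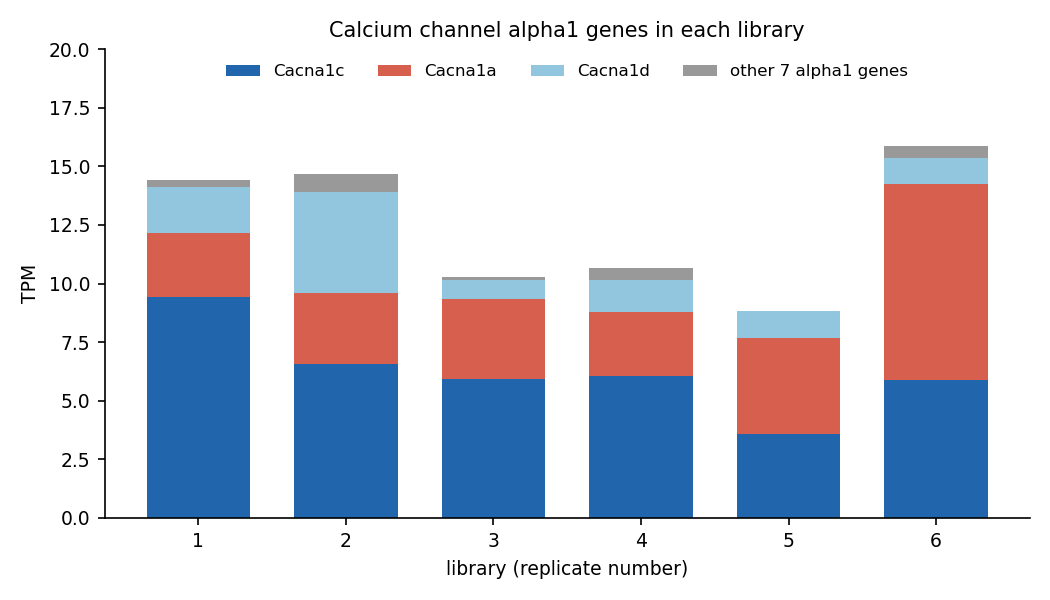
Level in TPM of the calcium channel alpha1 genes in each library, stacked by gene. Cacna1c forms the largest block in replicates 1 to 4 and Cacna1a in replicates 5 and 6, and the 7 other alpha1 genes add little in any library.

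The remaining high-voltage-activated genes were at or close to 0. Cacna1f, an L-type gene of the retina, measured 0.07, 0.6, 0, 0.38, 0 and 0.04 TPM. Cacna1b, the N-type gene, was above 0 in replicates 2 (0.18 TPM) and 3 (0.14 TPM) only. Cacna1s, the L-type gene of skeletal muscle, was above 0 in replicate 1 only (0.21 TPM), and Cacna1e, the R-type gene, was listed at 0 throughout.

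Low-voltage-activated (T-type) channels open close to the resting potential and carry pacemaking currents. Of their 3 genes, Cacna1g and Cacna1i were listed at 0 in every library, and Cacna1h was above 0 in replicates 4 (0.12 TPM) and 6 (0.49 TPM) only. Cacna1h shares 158 exonic bases with the mast cell tryptase gene Tpsg1 on the opposite strand, which measured 0 to 10.33 TPM. The summed high-voltage-activated level exceeded the T-type level by 3.59 ± 0.29 (SD) on the log2(TPM + 1) scale, higher in 6 of 6 libraries (two-sided exact sign-flip permutation test, p = 0.03125, Benjamini-Hochberg adjusted p = 0.03125). This is the smallest p that 64 assignments over 6 libraries allow, and it follows from the direction in every library alone. The size of this difference moved with the pseudocount, to 6.31 with 0.1 and 8.68 with 0.01, since the T-type sum was at 0 in 4 libraries.

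The auxiliary subunits of calcium channels were more abundant than the alpha1 subunits they accompany. Cacnb3, on chromosome 15 (98630840 to 98644529, plus strand), encodes a cytoplasmic beta subunit that carries alpha1 subunits to the membrane. It measured 29.06, 38, 48.57, 37.95, 29.66 and 23.18 TPM, a mean of 34.4 ± 8.98 (SD, n = 6). Cacna2d2, on chromosome 9 (107399612 to 107529343, plus strand), encodes an alpha2delta subunit, the protein family bound by gabapentin. Its values were 34.86, 37.71, 28.5, 36.14, 27.42 and 25.34 TPM, a mean of 31.7 ± 5.19 (SD, n = 6).

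Cacnb3 and Cacna2d2 did not separate in level. Cacnb3 was higher in 4 of 6 libraries, with a mean log2 difference of 0.09 ± 0.35 (SD). Both were well above the next gene in order, and Cacna2d2 exceeded Cacna1c in 6 of 6 libraries by 2.20 ± 0.32 (SD) on the log2(TPM + 1) scale. Together they supplied 62.0% to 76.4% of the TPM of the 43 genes. Cacna2d2 varied 1.49-fold between its lowest and highest library and Cacnb3 2.10-fold, where the median gene with a mean of 20 to 50 TPM varied 2.32-fold.

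The other beta genes were lower and more variable. Cacnb1, the beta subunit of skeletal muscle channels, measured 1, 8.22, 3.98, 1.49, 12.26 and 5.91 TPM (5.48 ± 4.29, SD, n = 6), a 12.3-fold range. Cacnb4, a beta subunit known from brain, measured 2.06, 2.54, 2.58, 5.01, 2.02 and 0.83 TPM (2.51 ± 1.38, SD, n = 6), and 1433 of its exonic bases are shared with the antisense transcript A430018G15Rik. Cacnb2, the principal beta subunit of the heart, was listed at 0 in every library. Cacnb3 therefore formed 67.5% to 90.5% of the summed beta level.

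Of the other alpha2delta genes, Cacna2d1 measured 4.15, 0, 0.35, 0, 0.03 and 0 TPM, with replicate 1 alone above 1 TPM, and Cacna2d3 and Cacna2d4 were listed at 0 throughout. Cacna2d2 accordingly formed 89.4% to 100% of the alpha2delta sum. All 8 gamma genes (Cacng1 to Cacng8), which include the skeletal muscle gamma subunit and the AMPA receptor regulators, were listed at 0 in every library.

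Summed over beta and alpha2delta genes, the auxiliary level was 74.8 ± 11.5 TPM (SD, n = 6) and stood 3.48 to 8.17 times above the alpha1 level. On the log2(TPM + 1) scale the difference was 2.51 ± 0.46 (SD), higher in 6 of 6 libraries (two-sided exact sign-flip permutation test, adjusted p = 0.03125).

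Voltage-gated sodium channel alpha genes, which generate the upstroke of action potentials, gave almost no RNA signal. None of the 9 was above 0 in all libraries, 5 were above 0 in some and 4 (Scn1a, Scn4a, Scn10a and Scn11a) were listed at 0 throughout. Scn7a was also listed at 0. Of all genes, 47.2% were above 0 in all libraries and 32.9% were listed at 0 throughout. The highest value of any alpha gene in any library was 1.12 TPM. Summed over the 9 genes, replicates 1 to 6 gave 0.44, 0.26, 0.93, 0.51, 0.65 and 1.47 TPM, and each library had between 1 and 3 alpha genes above 0.

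Scn8a, a neuronal alpha subunit, measured 0.04, 0, 0.31, 0.03, 0 and 1.12 TPM. Scn9a, known from sensory neurons, was above 0 in replicate 1 only (0.16 TPM) and Scn2a1, known from brain, in replicate 4 only (0.02 TPM). The leading alpha gene was Scn3a in replicate 5 and Scn8a in replicate 6. Scn2a1, Scn3a and Scn9a, the alpha genes that taste cells of the tongue are known to express, were each above 0 in 1 library only.

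Scn3a, a neuronal and endocrine alpha subunit, was above 0 in replicate 5 only, at 0.65 TPM. Of the 12 enteroendocrine markers, 3 were highest in the same library, namely Chga (40.39 TPM, against 0.19 to 6.41 in the others), Chgb (59.62 against 0.08 to 13.81) and Tph1 (11.03 against 0 to 0.91). The other 9 were not highest there, and 5 of these (Neurod1, Neurog3, Insm1, Pyy and Scg2) were listed at 0 in replicate 5. Over the whole list, 4 markers were above 0 in every library, and the summed level, most of it from Sct (331 to 474 TPM), was 491 TPM in replicate 5 and 403 to 555 TPM over all libraries, with the highest in replicate 2. The part of enteroendocrine cells in the Scn3a value was not tested.

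**Figure D4:**
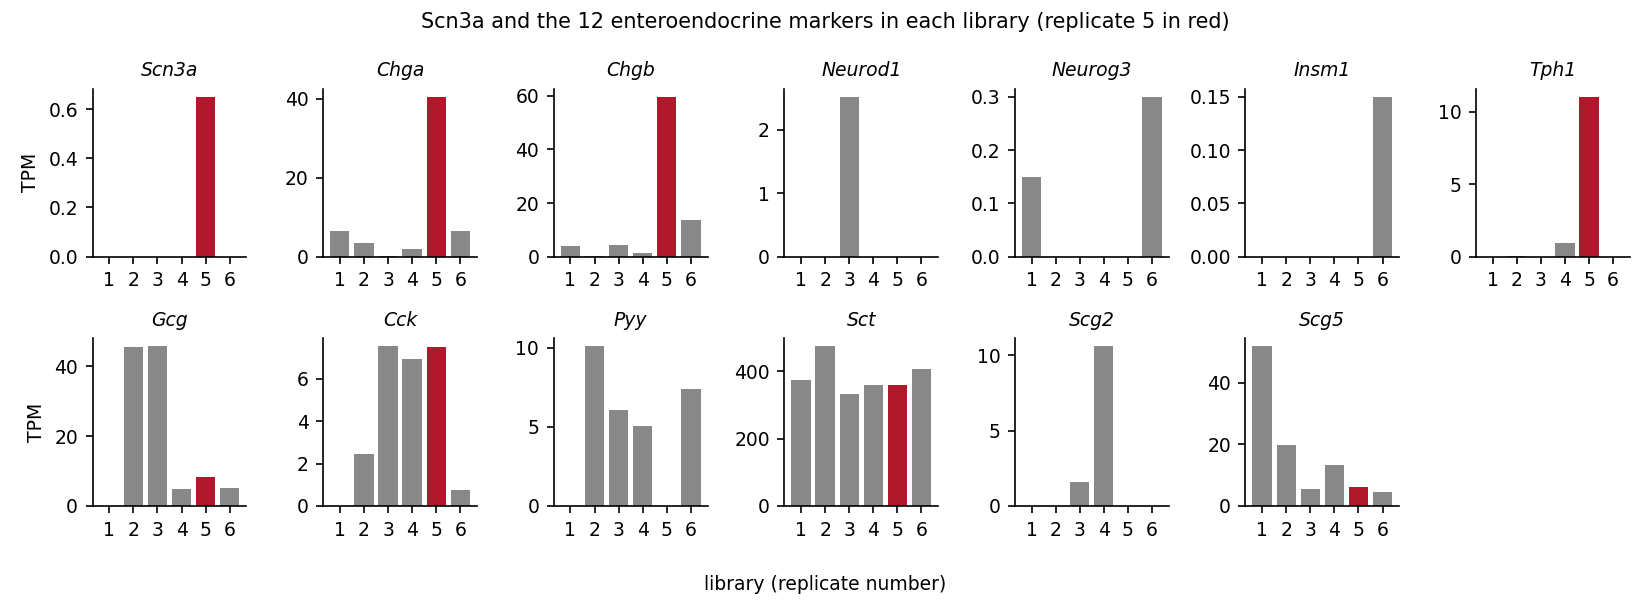
Level in TPM of Scn3a and of all 12 enteroendocrine markers in each library, with a separate axis from 0 for each gene. Replicate 5 (red) is the only library with Scn3a above 0, at 0.65 TPM, and is the highest for 3 of the 12 markers, while 5 of them are at 0 there.

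The sodium channel alpha sum was below the calcium channel alpha1 sum by 2.98 ± 0.45 (SD) on the log2(TPM + 1) scale, lower in 6 of 6 libraries (two-sided exact sign-flip permutation test, adjusted p = 0.03125). In TPM, the alpha1 sum was 10.8 to 56.5 times the alpha sum. The enteroendocrine markers summed to 403 to 555 TPM in the same libraries, most of it from Sct (331 to 474 TPM). Markers of neurons, glia and smooth muscle were near 0. The part of any of these cells in the channel levels was not tested. The 10 neuronal and glial markers summed to between 0 and 1.42 TPM, and 5 of them, Elavl4, Rbfox3 and Stmn2 included, were listed at 0 in every library. The 6 smooth muscle markers summed to between 0 and 3.83 TPM, and Myh11, Des, Cnn1 and Myl9 were listed at 0 in every library.

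The sodium channel beta genes encode single-span proteins that modify gating and also act in cell adhesion. Scn2b, on chromosome 9, was above 0 in all libraries, with 0.74, 6.35, 2.12, 0.37, 3.14 and 1.22 TPM (2.32 ± 2.21, SD, n = 6). This 17.2-fold range was the widest of the 9 genes, and the mean without replicate 2 was 1.52 TPM. Scn3b measured 0.16, 0, 0.17, 1.4, 0.05 and 0.11 TPM, and Scn4b was listed at 0. The beta sum exceeded the alpha sum by 1.00 ± 0.87 (SD) on the log2(TPM + 1) scale, with differences from 0.10 to 2.54 and the same direction in 6 of 6 libraries (two-sided exact sign-flip permutation test, adjusted p = 0.03125). With a pseudocount of 0.1 this difference was 1.69.

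The epithelial sodium channel admits sodium across apical membranes and needs its alpha, beta and gamma subunits for full activity. Scnn1a, the alpha subunit gene on chromosome 6 (125320659 to 125344943, plus strand), measured 6.49, 4.69, 3.46, 7.89, 1.44 and 4.03 TPM (4.67 ± 2.28, SD, n = 6). Scnn1b and Scnn1g, for the beta and gamma subunits, were listed at 0 in every library. The Scnn1 sum therefore equals Scnn1a and exceeded the voltage-gated sodium channel alpha sum by 2.22 to 18.0 times. The alpha sum was lower by 1.65 ± 0.82 (SD) on the log2(TPM + 1) scale in 6 of 6 libraries (two-sided exact sign-flip permutation test, adjusted p = 0.03125). With a pseudocount of 0.1 the difference was -2.55.

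Below Cacna2d2, neighbours in the order of means did not separate in every library. Cacna1c exceeded Cacnb1 in 3 of 6 libraries, Cacnb1 exceeded Scnn1a in 4, Scnn1a exceeded Cacna1a in 4, Cacnb4 exceeded Scn2b in 3 and Scn2b exceeded Cacna1d in 4. Cacna1a exceeded Cacnb4 in 5, by 0.53 ± 1.01 (SD) on the log2(TPM + 1) scale.

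Trpm5 itself measured 1141 ± 211 TPM (SD, n = 6). It shares 220 exonic bases with Tssc4 on the opposite strand, which measured 61.5 to 109 TPM. The summed level of all pore-forming members, which are the sodium channel alpha, calcium channel alpha1 and Scnn1 genes, was 17.8 ± 4.18 TPM (SD, n = 6), and Trpm5 was 52.3 to 93.3 times higher within libraries. On the log2(TPM + 1) scale Trpm5 exceeded this sum by 5.94 ± 0.28 (SD) in 6 of 6 libraries (two-sided exact sign-flip permutation test, adjusted p = 0.03125). Against the calcium channel alpha1 sum alone, Trpm5 was 70.5 to 115 times higher.

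**Figure D5:**
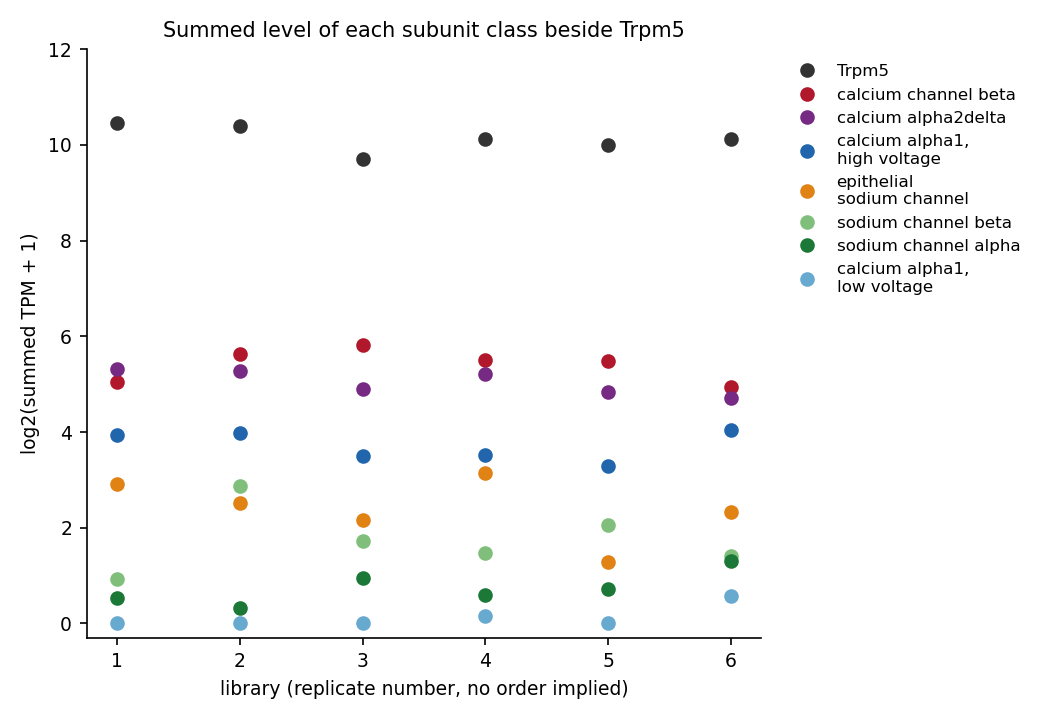
Summed level of Trpm5 and of the subunit classes with any value above 0 in each library, as log2(summed TPM + 1). Trpm5 lies above all of them in every library, the calcium channel beta and alpha2delta sums come next, and the sodium channel alpha and T-type sums lie lowest of those drawn (the gamma class, at 0 throughout, is left out).

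Genes that act upstream of or beside these channels were read from a list of 22 genes of taste signalling, calcium handling and membrane potential, of which 21 were in the table and 17 were above 0 in all libraries. Trpm4, the calcium-activated cation channel closest to TRPM5, measured 10.8 to 27.3 TPM, above the alpha1 sum in its mean of 21.1 ± 6.11 (SD, n = 6). Among inositol trisphosphate receptors, which release stored calcium, Itpr2 measured 64.5 ± 13.6 TPM and Itpr3 19.8 ± 5.49 TPM (SD, n = 6), while Itpr1 stayed between 0.74 and 2.90 TPM. Atp2a3, a pump that refills the stores, measured 1572 ± 363 TPM (SD, n = 6). Nalcn, a sodium leak channel gene, was listed at 0 in every library.

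In taste cells, action potentials open the voltage-gated release channel formed by CALHM1 and CALHM3. Calhm1 was listed at 0 in every library, and no values were available for Calhm3. Calhm2 measured 0.77 to 9.02 TPM and Panx1, which encodes another large-pore release channel, 8.29 to 29.3 TPM.

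The pattern of Cacna1c over the 6 libraries was set beside that of 12031 other genes that averaged 1 TPM or more, by Pearson r of log2(TPM + 1). The genes most like it were Tbc1d23 (r = 0.998), Mmgt2 (0.987), Cttn (0.987), Ripk4 (0.985) and Qpctl (0.984). With 6 points from libraries that share their scaling, 205 genes (1.70%) had r above 0.9, so these values are a description only. Among related genes, r with Cacna1c was 0.594 for Trpm5, 0.549 for Cacna2d2, 0.391 for Cacna1d, 0.0285 for Cacnb3 and -0.337 for Cacna1a. Neither Cacnb3 nor Cacna2d2 was among the 5 genes most like Cacna1c.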

How the data were processed

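Tuft cells were sorted from the ileum of Gfi1b-eGFP/+ mice, and RNA was made into libraries by a modified SMART-Seq2 protocol with Nextera XT fragmentation, which keeps no strand. The labels name a tag-based polyA and a droplet preparation beside it for every library. The authors converted the paired-end reads with Bcl2Fastq, aligned them with Bowtie to the UCSC mm10 transcriptome, and deposited TPM values from RSEM v1.2.3, to 2 decimals. The submitters' processing notes also name TopHat and DESeq2, and no result of the latter was used. Each library summed to 1000000 within rounding, of which the ribosomal RNA gene Rn45s took 23.1% to 32.6%. Sequencing depth is unknown, so precision rests on the spread between the 6 libraries, and methods for counts were not applied.

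The number in each column's name gave its replicate, and 0 columns of per-sample values were left unmatched. Members were taken by symbol, and the members and all lists were chosen with earlier results of these data known. Classes were summed in TPM, with Scn7a kept out of the sodium channel alpha sum, and 6 class comparisons were made within libraries on log2(TPM + 1). Differences were tested by exact permutation of their signs over the 6 libraries (two-sided, 64 assignments), adjusted by the Benjamini-Hochberg method over the 6 comparisons, with a threshold of 0.05. Since the sources do not describe the collection of each library, these p-values speak only of these 6 libraries. Each was the smallest that 64 assignments allow, which follows from the same direction in 6 of 6 libraries and does not measure the spread.

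Values in every library are given for members with a mean of at least 1 TPM and for every pore-forming member above 0 in any library. The other members are given by range and count, and some members and markers, though counted in the totals and sums, are not reported here by name. Scn3b, Cacna2d1, Atp2a3 and Nalcn were named with values after those had been seen. Context genes were given by count, with values for the TRPM5 pathway and release channels, and marker genes by list. For the most abundant voltage-gated member, the 5 genes most like it were named.

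Alternatives were pseudocounts of 0.1 and 0.01, setting values under 0.1 TPM to 0, median-of-ratios rescaling, rescaling without Rn45s and Gm20594, an exact Mann-Whitney test over 924 assignments, the most abundant gene of each class in place of the sum, Scn7a in the alpha sum, a mean of at least 5 TPM, and leaving out each library. Leaving Cacna1d out of the sums was chosen after seeing the data. Gene models and coding sequences came from GENCODE M21 on GRCm38, where all 43 symbols were matched, Scn2a1 as Scn2a. Promoter sequences were not used. Calculations ran in Python 3.11.15 with scipy 1.17.1, pandas 2.3.3 and numpy 2.4.6, and plots in matplotlib 3.10.9.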

Additional observations from a re-analysis of the deposited data

Results flagged for a closer look

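In 8 of 24 measures screened, 1 library stood apart from the others by Dixon's ratio, the gap to the nearest library divided by the whole range, above its critical value for 6 libraries. Members outside the screen included Cacna2d1 (ratio 0.916, highest in replicate 1) and Scn3b (0.879, highest in replicate 4), both also above this value. For normally distributed values, chance flags about 1 in 20 such measures, or 1.2 of 24. The screen used TPM, and several flagged genes had no signal in most libraries, so this rate does not hold for them. Whether 8 of 24 exceeds chance can therefore not be read from this screen.

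Cacna1a in replicate 6 (8.39 TPM, ratio 0.755) and Cacna1d in replicate 2 (4.31 TPM, ratio 0.662) were high among values above 0 in every library. Scn8a in replicate 6 (1.12 TPM, ratio 0.723) and Cacna1h in replicate 6 (0.49 TPM, ratio 0.755) came from genes listed at 0 in other libraries. Replicate 6 therefore held 3 of the 8 high values. For Scn3a in replicate 5 (0.65 TPM), Cacna1s in replicate 1 (0.21 TPM), Scn9a in replicate 1 (0.16 TPM) and Scn2a1 in replicate 4 (0.02 TPM) the ratio was 1, a value that arises by construction when the other 5 libraries are listed at 0.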

How the results depend on the processing

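All 6 class comparisons kept their direction and stayed under the threshold in every alternative that kept all 6 libraries. Adjusted p lay between 0.00325 and 0.03125 (exact sign-flip permutation tests and, for the lowest, the exact Mann-Whitney test). The Mann-Whitney test ignores the pairing within a library, so its lower p is not stronger support. Counting Scn7a could not move the alpha sum, as this gene was listed at 0 in every library. The log2 difference ranged from 5.93 to 7.16 for Trpm5 over the pore-forming members, -4.29 to -2.30 for sodium channel alpha against calcium channel alpha1, -2.73 to -1.62 for sodium channel alpha against Scnn1, 2.79 to 8.68 for high-voltage-activated over T-type, 0.98 to 1.85 for sodium channel beta over alpha, and 2.25 to 2.71 for calcium channel auxiliary genes over alpha1. The widest ranges belong to sums near 0, where the pseudocount sets the size. Without Cacna1d, which shares exonic bases with Chdh, the 4 comparisons that used it gave 6.08, -2.78, 3.38 and 2.71 in the order above.

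Leaving out each library in turn moved these differences to 5.84 to 5.99, -3.07 to -2.85, -1.87 to -1.47, 3.51 to 3.65, 0.70 to 1.19 and 2.43 to 2.66, given without a test because 5 libraries allow no p under 0.0625. With a mean of at least 5 TPM in place of 1, 4 members in place of 9 reached the level. Rescaling without Rn45s and Gm20594 raised the means of Cacnb3, Cacna2d2 and Cacna1c to 49.5, 45.9 and 8.99 TPM, beyond the spread between libraries, as all other genes were multiplied by 1.33 to 1.61. Depth is unknown, so whether a gene listed at 0 was missed or not transcribed cannot be read from these files.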
